A study of Drosophila melanogaster with 4 samples.

Results

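The genes described here encode subunits of the mitochondrial respiratory chain (complexes I to IV) and of the ATP synthase (complex V). They are the genes with spots on the array whose current symbol, looked up by gene ID, starts with ND-, Sdh, UQCR-, COX plus a digit or ATPsyn, provided that a spot gave a ratio on at least 1 array of each biological replicate. This left 55 spots for 50 genes, of 16416 spots in the table and 5752 genes that met the same minimum. By complex they were 25 genes of complex I, 4 of complex II, 3 of complex III, 7 of complex IV and 11 of complex V. The prefix also took in Sdhaf3, an assembly factor of complex II that is no part of the finished enzyme, and ND-MLRQ, whose mammalian counterpart is now counted with complex IV.

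Mutant whole Drosophila melanogaster embryos carried dsap18 allele 117, a null allele made by mobilising a P element, over the deficiency Df(3R)sbd45, which removes dsap18, in a w1118 background. Control embryos had the same allele, deficiency and background and in addition a dsap18-HA transgene, so the mutant allele and the deficiency were shared by all embryos. Collections spanned 0 to 24 h of development in both, which pools all embryonic stages, and flies were kept at 25 °C. Neither the promoter of the transgene nor the way embryos were picked for genotype is given in the sources used here. The rescue transgene is placed on chromosome 2 by the label of 1 control channel of replicate 1 and on X by the labels on the other 3 arrays. There were 2 biological replicates from separate extractions, each run on 2 two-colour arrays with exchanged dyes, so n = 2 throughout. Every value below is a log2 ratio of the channels, likely mutant over control, since the arrays are titled for the mutant, but the deposited table does not state its direction. With the opposite direction every sign below turns and every size stays.

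The respiratory chain passes electrons from NADH (complex I) and succinate (complex II) through ubiquinone, complex III and cytochrome c to oxygen at complex IV, and complexes I, III and IV pump protons across the inner membrane. The ATP synthase lets the protons back through its membrane part, which turns a central stalk inside the catalytic head that makes ATP. Most subunits are encoded in the nucleus and a minority, at the core of complexes I, III, IV and V, in mitochondrial DNA. In the fly embryo much of the early supply of mitochondria and of these transcripts is laid down by the mother. None of the 13 protein genes of mitochondrial DNA had a spot in the annotation used, so the values concern nuclear genes alone.

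The respiratory chain and ATP synthase genes lay close to equal levels in mutant and control embryos, with a small shift to negative ratios. Their median log2 ratio was -0.10, against 0.02 over all 5752 genes tested, and their quartiles were -0.25 and 0.04, against -0.22 and 0.24 over all genes. Of the 50 genes 35 (70.0%) had a ratio below 0, against 48.5% of all genes. None of them went beyond 2-fold, but only 0.748% of all tested genes did, so this does not set the members apart. The limma test (adjusted p under 0.05, Benjamini-Hochberg over all 5752 genes) was passed by 4 of the 50, or 8.0%, against 22.8% of all genes: 3 with a negative ratio, where the background was 11.6%, and 1 with a positive ratio, where it was 11.2%. The 3 were ND-51, COX6B and ATPsynbeta, and the 1 was Sdhaf3. At an unadjusted p under 0.05 there were 7 of 50, against 2022 of all 5752 genes, so by this limit too the share was lower among the members. In whole embryos of pooled stages, fewer cells of a type, less RNA per cell and a different stage mix cannot be told apart.

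The smallness of these ratios is a statement within the precision of 2 replicates. The 95% confidence interval of a gene's ratio reached between 0.314 and 0.323 to either side, so the 46 genes that missed the threshold are not shown to be equal in mutant and control embryos. This width comes almost wholly from the variance that limma shares over all genes (62.9 prior against 1 residual degrees of freedom). It says little about a gene's own replicates: ND-PDSW with an SD of 0.004 had 0.314, and ATPsynO with an SD of 0.43 had 0.323. COX4, for example, a nuclear subunit of complex IV at 0.02, had an interval from -0.29 to 0.33. The smallest ratio in size that passed was that of COX6B (-0.42), and the largest that did not was that of ND-18 (-0.38, adjusted p = 0.0715).

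**Figure D1:**
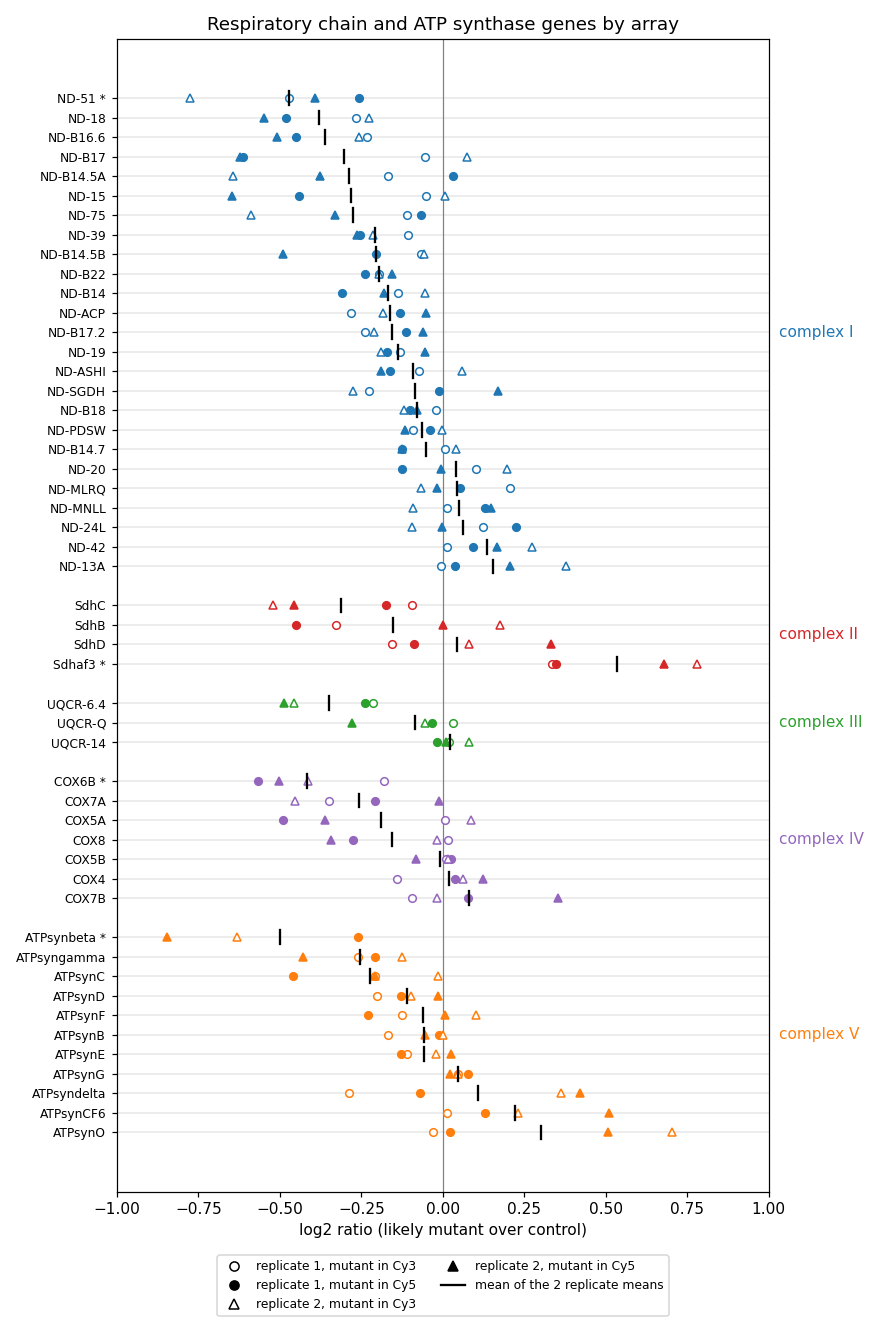
Log2 ratio (x axis, likely mutant over control) of each of the 50 genes (rows, sorted within complexes I to V) on each array. Circles are replicate 1 and triangles replicate 2, open symbols have the mutant in Cy3 and filled ones in Cy5, the black bar is the mean of the 2 replicate means, and a star marks the 4 genes with an adjusted p under 0.05; 40 of the 50 bars sit within 0.3 of 0, with ATPsynbeta lowest at -0.50 and Sdhaf3 highest at 0.53.

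Signs repeated across arrays more often on the negative side. Of the 49 genes with a ratio on all 4 arrays, 20 were negative on every array, against 30.4% of all 4318 such genes, and 4 were positive on every array, against 32.6%. The remaining 25 had both signs. Of the genes on all 4 arrays, negative throughout were 13 of 25 in complex I and 1 of 4 in complex II. The counts were 1 of 3 in complex III, 2 of 7 in complex IV and 3 of 10 in complex V. The 4 genes positive on every array were ND-42, Sdhaf3, ATPsynG and ATPsynCF6. The median over the 50 genes was -0.13 in replicate 1 and -0.08 in replicate 2, and 40 and 34 genes were below 0 in these replicates. Ratios spread more widely in replicate 2, with an SD over the 50 genes of 0.29 against 0.15 in replicate 1. Over all tested genes these were 0.48 and 0.28, so larger values in replicate 2 are not particular to the members.

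Array values are given below in 1 fixed order: replicate 1 with the mutant in Cy3, replicate 1 with the mutant in Cy5, replicate 2 with the mutant in Cy3, replicate 2 with the mutant in Cy5. Errors are the SD of the 2 replicate means.

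Complex I, the NADH dehydrogenase, had a median of -0.16 over 25 genes, and 19 of them were below 0. Its matrix arm takes electrons from NADH and carries them along iron-sulfur clusters to ubiquinone. ND-51 (NCBI gene 33852, chromosome arm 2L), the flavoprotein that binds NADH, had ratios of -0.47, -0.26, -0.78 and -0.39. All 4 arrays were negative, and the mean of -0.47 ± 0.16 is a 1.39-fold difference (adjusted p = 0.0233). ND-75, the large iron-sulfur subunit that receives electrons from it, gave -0.11, -0.07, -0.59 and -0.33. It was negative throughout but small in replicate 1, and its mean of -0.27 ± 0.26 did not pass (adjusted p = 0.213). ND-20, the iron-sulfur subunit beside the ubiquinone site, stood at 0.04 ± 0.08. ND-24L, a duplicate of the iron-sulfur subunit gene ND-24, was at 0.06 ± 0.16. The core genes ND-23, ND-24, ND-30 and ND-49 were not analysed here.

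The accessory subunits of the matrix arm, which stabilise the enzyme without carrying electrons, ranged from ND-18 to ND-13A. ND-18, the fly counterpart of human NDUFS4, gave -0.27, -0.48, -0.23 and -0.55, with replicate means that nearly coincided (-0.38 ± 0.01). The arrays with the mutant in Cy5 were the more negative ones in both replicates. ND-13A was the highest gene of complex I at 0.15 ± 0.20, close to 0 in replicate 1 (0.02) and at 0.29 in replicate 2. Between them lay ND-B14.5A (-0.29), ND-39 (-0.21), ND-B14 (-0.17) and ND-B17.2 (-0.16). ND-ACP, the mitochondrial acyl carrier protein, which sits in both arms and also serves fatty acid synthesis, was at -0.16 ± 0.06, and its 2 spots were at -0.13 and -0.19.

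The membrane arm, which holds the proton channels, was represented by 13 accessory genes with a median of -0.09, against -0.19 for the 10 matrix arm genes, a difference that was not tested. None of the 13 passed limma's test and 1 had an unadjusted p under 0.05. That gene was ND-B16.6, counterpart of human NDUFA13, at -0.23, -0.45, -0.26 and -0.51. All arrays were negative, and the mean was -0.36 ± 0.03 (adjusted p = 0.0864). ND-B17 (-0.30), ND-15 (-0.28), ND-B14.5B (-0.21), ND-B22 (-0.20) and ND-19 (-0.14) followed. ND-ASHI, ND-SGDH, ND-B18, ND-PDSW and ND-B14.7 lay between -0.09 and -0.05. ND-MNLL (0.05) and ND-42 (0.14) were above 0, as was the reassigned ND-MLRQ at 0.04.

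Complex II, succinate dehydrogenase, is shared between the respiratory chain and the citric acid cycle. Its 3 measured subunit genes had no common direction, and the flavoprotein gene SdhA was not analysed here. SdhB, the iron-sulfur subunit, gave -0.33, -0.45, 0.18 and -0.0007. The replicates had opposite signs, and the mean was -0.15 ± 0.34. SdhC, a membrane anchor, was negative on all 4 arrays at -0.31 ± 0.25 (adjusted p = 0.151), and SdhD, the other anchor, was at 0.04 ± 0.23. Sdhaf3 (NCBI gene 42004, chromosome arm 3R), which helps insert iron-sulfur clusters into SdhB, gave 0.33, 0.35, 0.78 and 0.68. Every array was positive and well apart from the subunit genes in replicate 1, where all 3 of those were below 0. Its mean of 0.53 ± 0.27 was the highest of the 50 genes, a 1.45-fold difference (adjusted p = 0.0111). With Sdhaf3 the median of complex II was -0.05, and over the 3 subunits it was -0.15.

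Complex III, which passes electrons from ubiquinol to cytochrome c, had 3 small accessory subunits among the members and a median of -0.08. None passed limma's test, and UQCR-6.4 had an unadjusted p under 0.05. Its ratios were -0.21, -0.24, -0.46 and -0.49. Swapped arrays nearly coincided and replicate 2 was lower, for a mean of -0.35 ± 0.17 (adjusted p = 0.101). UQCR-Q was at -0.08 ± 0.12 and UQCR-14 at 0.02 ± 0.03.

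Complex IV, cytochrome c oxidase, reduces oxygen to water. Its members were 7 of the nuclear subunits that surround the mitochondrially encoded core, with a median of -0.16. COX6B (NCBI gene 32989, chromosome X), a subunit on the intermembrane side, gave -0.18, -0.57, -0.41 and -0.50. All arrays were negative, and the mean of -0.42 ± 0.06, a 1.33-fold difference, passed narrowly (adjusted p = 0.047). COX7A gave -0.35, -0.21, -0.45 and -0.01 and did not pass (-0.26 ± 0.03, adjusted p = 0.242). COX5A (-0.19) and COX8 (-0.16) had their negative values almost entirely on the arrays with the mutant in Cy5. COX5B (-0.01), COX4 (0.02) and COX7B (0.08) lay at or just above 0.

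The ATP synthase was the complex in which the replicates differed most among those with over 4 members. The median SD between replicates was 0.16 over its 11 genes, against 0.05 in complex I, 0.06 in complex IV and 0.15 over all tested genes. In the catalytic head, ATPsynbeta (NCBI gene 43829, chromosome 4), which holds the sites where ATP is made, had no value on the array of replicate 1 with the mutant in Cy3. On the other 3 arrays it gave -0.26, -0.63 and -0.85. It was the lowest of the 50 genes, at -0.50 ± 0.34 and 1.41-fold (adjusted p = 0.0181), and in replicate 1 a dye effect cannot cancel because 1 orientation is missing. ATPsyngamma, the rotating stalk, was at -0.26 ± 0.03, and its 2 spots were at -0.31 and -0.07. The spot at -0.07 was positive (0.10) in replicate 2 with the mutant in Cy3. It had no value in replicate 2 with the mutant in Cy5, so the gene's ratio on that array (-0.43) is from the other spot alone. ATPsyndelta, also of the central stalk, was negative in replicate 1 (-0.18) and positive in replicate 2 (0.39).

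The peripheral stalk, which holds the head still, included the highest ratios of the complex, which were larger in replicate 2. ATPsynO, the stalk protein that caps the head, gave -0.03, 0.02, 0.70 and 0.51. It was near 0 in replicate 1 and clearly positive in replicate 2, and the mean of 0.30 ± 0.43 did not pass (adjusted p = 0.177). ATPsynCF6 was at 0.22 ± 0.21 and ATPsynD at -0.11 ± 0.08. ATPsynB had spots of opposite sign, 0.20 and -0.32, each with the same sign on all 4 arrays, so that its gene mean of -0.06 describes neither. Of the membrane part, the rotor ring gene ATPsynC was negative on all arrays (-0.22 ± 0.16), and ATPsynE, ATPsynF and ATPsynG lay between -0.06 and 0.05.

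**Figure D2:**
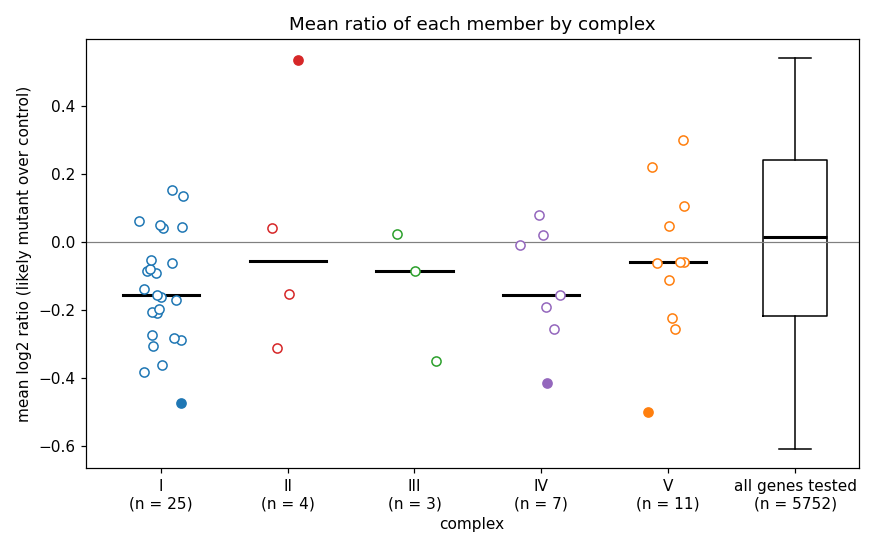
Mean log2 ratio (y axis, likely mutant over control) of each gene by complex (points), with the median of each complex as a black bar and all 5752 tested genes as a box at the right (median and quartiles, whiskers at percentiles 5 and 95). Filled points have an adjusted p under 0.05; the medians run from -0.16 (complexes I and IV) to -0.05 (complex II), all inside the box of all genes.

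Set side by side, the medians were -0.16 in complex I, -0.05 in complex II, -0.08 in complex III, -0.16 in complex IV and -0.06 in complex V. The complexes are groups of genes on the same arrays, so no test was made between them. In replicate 1 the medians were -0.12, -0.13, 0.00, -0.13 and -0.16 from complex I to V. In replicate 2 they were -0.12, 0.15, -0.17, -0.14 and 0.00. Complexes I and IV thus had nearly the same median in both replicates, but not with both dyes. On the arrays with the mutant in Cy3 the medians from complex I to V were -0.070, -0.058, -0.013, -0.040 and -0.038, the last without ATPsynbeta. On those with the mutant in Cy5 they were -0.13, -0.05, -0.16, -0.11 and -0.05, with complex III lowest. The share of genes that passed was 1 of 25 (4.0%), 1 of 4 (25.0%), 0 of 3, 1 of 7 (14.3%) and 1 of 11 (9.1%) from complex I to V. Over all genes it was 22.8%, and the gene that passed in complex II was the assembly factor Sdhaf3, with 0 of the 3 subunits.

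Several members depended on which dye the mutant RNA carried, in the same way in both replicates. ND-B17 gave -0.05, -0.61, 0.07 and -0.62, near 0 with the mutant in Cy3 and strongly negative with the mutant in Cy5. ND-15 gave -0.05, -0.44, 0.01 and -0.65, and COX5A 0.01, -0.49, 0.09 and -0.36, with the same split. These 3 of the 49 genes on all arrays had a ratio lower by over 0.3 with the mutant in Cy5 in both replicates, as 1.37% of all 4318 such genes did, and none was higher by over 0.3 in both, against 1.44% of all genes (the limit of 0.3 was set after the values were seen). Across the 49 genes the difference between swapped arrays in replicate 1 correlated with that in replicate 2 with Pearson r = 0.780 and Spearman rho = 0.742. For the replicate means of the same genes these were 0.610 and 0.611. Over all 4318 genes the order was reversed, with r = 0.491 for the swap difference and 0.756 for the replicate means. These are descriptions across genes that share their arrays, and genes are not independent replicates. For these 3 genes the mean over swapped arrays averages values that disagree, and none of them passed when all arrays were used. On the arrays with the mutant in Cy5 alone all 3 passed with negative ratios and made up 3 of the 7 negative calls there, and ND-B17 also passed with arrays scaled to equal width.

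**Figure D3:**
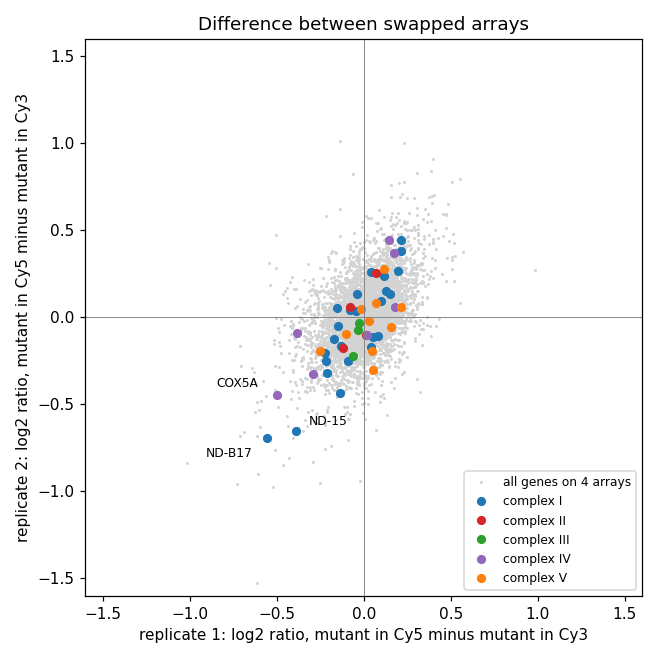
Difference in log2 ratio between swapped arrays (mutant in Cy5 minus mutant in Cy3), replicate 1 on the x axis and replicate 2 on the y axis, for the 49 genes on all 4 arrays (coloured by complex) over all 4318 such genes (grey). ND-B17, ND-15 and COX5A lie at the lower left, more negative with the mutant in Cy5 in both replicates.

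How far the calls held depended on the setting. Sdhaf3 passed in every alternative that kept limma's shared variance, ND-51 in all of them except the arrays with the mutant in Cy5 alone (-0.32, adjusted p = 0.126), and COX6B lost its call in 5 of them, with adjusted p between 0.0518 and 0.274. ATPsynbeta passed in the 4 that measured it. Tested gene by gene without shared variance, 0 of the 50 passed, with the lowest adjusted p at 0.557, although 3 fell under 0.05 before adjustment. That limma setting called 0 of all 5752 genes, of which 461 were under 0.05 unadjusted. By replicate, ATPsynbeta was at -0.26 in replicate 1 and -0.74 in replicate 2, and Sdhaf3 at 0.34 and 0.73. The size of both thus rests on replicate 2 more than on replicate 1. Ratios were wider in replicate 2 over all tested genes too (SD over genes of 0.48 against 0.28).

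Some genes of the same pathway have names outside the prefixes. Of 8 such subunits and carriers 2 passed (25.0%, near the 22.8% of all genes), both negative, and the median of the 8 was -0.08. RFeSP, the Rieske iron-sulfur protein of complex III, gave -0.34, -0.52, -0.26 and -0.61, and its mean was -0.43 ± 0.01 (adjusted p = 0.0386). The complex IV subunit gene levy was negative on all arrays at -0.42 ± 0.21 (adjusted p = 0.0454). The highest of the 8 was CG13551, named in the gene table as the ATP synthase inhibitor IF1, at 0.32 ± 0.32, which did not pass. The catalytic-head subunit gene blw, partner of ATPsynbeta, was at -0.13 ± 0.04 and did not pass.

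Among 9 further genes that assemble the complexes or build their membrane, 2 passed (22.2%, near the 22.8% of all genes), both positive. Sirup, listed in the gene table as Sdhaf4 and like Sdhaf3 an assembly factor of complex II, gave 1.30, 0.74 and 2.45, with no value on the array of replicate 2 with the mutant in Cy5. Its mean of 1.74 ± 1.01 was the highest of all 5752 tested genes, a 3.33-fold difference (adjusted p = 5.20e-11), and in replicate 2 it rests on 1 dye orientation. That small p comes from the variance limma shares over all genes (prior SD 0.224), below the SD of 1.01 between the replicates of Sirup. Without shared variance 0 of the 5752 genes passed. Taz, the tafazzin that remodels the inner membrane lipid cardiolipin, was at 0.50 ± 0.35 (adjusted p = 0.0171), also from 3 arrays. The lowest of the 9 was the copper chaperone gene Cox17 at -0.16 ± 0.10, which did not pass.

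Of 10 genes of the citric acid cycle and pyruvate dehydrogenase (median -0.16), Idh3g passed with a negative ratio and Idh with a positive one (20.0%, near the 22.8% of all genes). Idh3g, a subunit of the NAD-dependent isocitrate dehydrogenase of the mitochondrial cycle, gave -0.46, -0.59, -0.55 and -0.56, and its mean was -0.54 ± 0.02 (adjusted p = 0.00882). Idh, an NADP-dependent isocitrate dehydrogenase, was at 0.48 ± 0.41. Of 11 inner membrane carrier, porin and import genes (median -0.07) 1 passed (9.1%, against 22.8% of all genes). It was Tom40, the import channel of the outer membrane, at 0.48 ± 0.32. The lowest was Tim8 at -0.37 ± 0.05, which did not pass. Of 4 measured genes of mitochondrial DNA, regulators and dynamics, mtSSB, which binds single-stranded mitochondrial DNA, passed at 0.60 ± 0.58 and the quality-control kinase gene Pink1 at 0.42 ± 0.12. That is 50.0% of a list of only 4 genes, against 22.8% of all genes. The lowest of the 4 was the fusion gene Opa1 at -0.06.

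Markers of differentiated tissues mostly had ratios further from 0 than the respiratory genes in the same embryos. Among 8 muscle genes (median -0.56) 6 passed with negative ratios, and among 8 epidermal and cuticle genes (median -0.78) 8 did. Of 9 genes of hemocytes, fat body and basement membrane 8 passed with negative ratios (median -0.77), as did 5 of 8 midgut genes (-0.65) and 1 of 3 neuronal genes (-0.14). Of 6 maternal and germ plasm genes 4 passed with positive ratios, and their list had a median of 0.55. Over all 5752 genes, 11.6% passed with a negative ratio and 11.2% with a positive one. The marker lists were chosen with earlier results of these data known, so their counts can be high by choice. The markers' ratios ranged from -0.98 (Jon25Bii) to 0.89 (plu), a wider span than the -0.50 to 0.53 of the 50 respiratory genes. The part of these marker differences, or of a different stage mix, in the members' ratios was not tested.

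**Figure D4:**
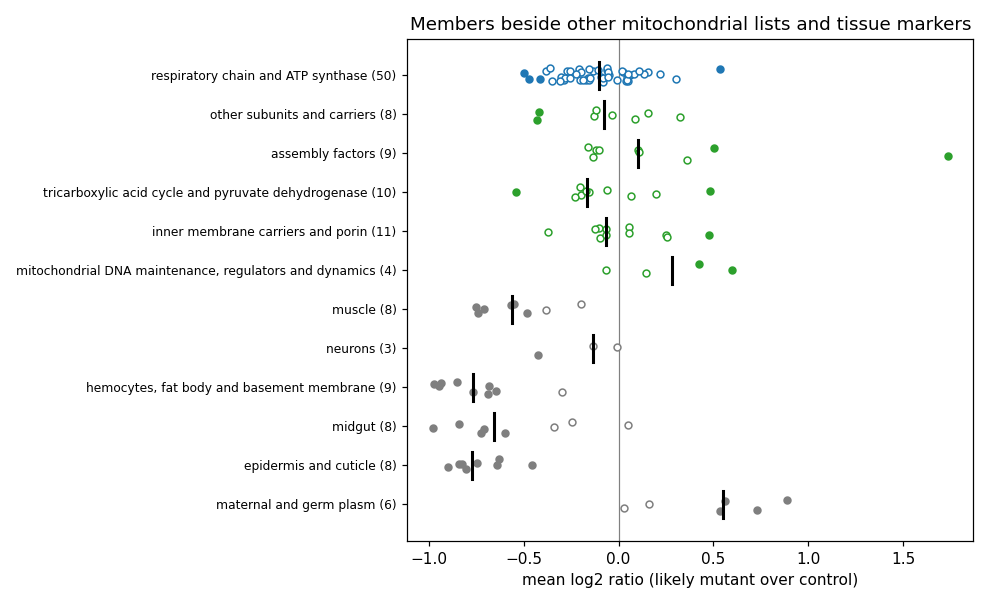
Mean log2 ratio (x axis, likely mutant over control) of the 50 members (blue), of other mitochondrial gene lists (green) and of tissue markers (grey), with the number of genes in brackets and the median as a black bar. Filled points have an adjusted p under 0.05; the members cluster near 0, Sirup lies alone at 1.74, and the muscle, midgut, basement membrane and cuticle medians lie between -0.56 and -0.78.

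Presence on the array differed by gene type. By name alone the prefixes covered 72 genes with a spot, of 91 so named in the gene table. Of 52 genes without the suffix L, 49 gave ratios in both replicates, and COX7C, ND-B12 and ND-B8 did not. Of 20 genes whose suffix L marks a duplicate of a respiratory gene, only ND-24L did, and 18 had no value on any array. Many such duplicates are known in Drosophila for expression in the testis, and whether this bears on the empty spots was not tested. The names closest to the minimum were ND-B12, with a single ratio of -0.07 in replicate 1, and ATPsynepsilonL, with a single ratio of 0.10 in replicate 2. The rule that left spots empty is not given in the sources used here, so an empty spot is not a measured absence.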

How the data were processed

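The deposited values are log ratios of both channels per spot and array, computed by the authors and read here as log2. The submitters' processing notes name limma, without a version. Background correction, normalization, log base, direction and the rule for empty spots are not given in the labels or headers. All 4 columns correlated positively although dyes were swapped, so no sign was turned. That the ratios were already turned to one direction is inferred, not stated. The arrays had values for between 6537 and 7976 of 16416 spots. Without intensities, signal over background cannot be given. Precision is limited by the 2 biological replicates, since swapped arrays share their RNA.

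Symbols came from the platform annotation, updated by gene ID through the Release 6 RefSeq gene table (12532 spots by gene ID, 120 by accession, 511 unchanged). Spots with 1 symbol and a value on at least 1 array of each replicate were averaged into 5752 genes. Swapped arrays were averaged, and limma 3.58.1 under R 4.3.3 set both replicate means against 0. The moderated two-sided test used lmFit with eBayes, 62.9 prior and 1 residual degrees of freedom, and Benjamini-Hochberg adjustment over all genes, with 0.05 as the limit for passing. The script was tested on simulated data. Every member may be named, and of other lists those that passed plus the lowest and highest. The exception is blw, named as the partner of ATPsynbeta. Members and lists were chosen with earlier results of these data known. Gene lists are described without a test. No promoter or protein sequences were used here. The targeted gene was not analysed here.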

Additional observations from a re-analysis of the deposited data

Results flagged for a closer look

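COX5B, a nuclear subunit of complex IV, stood out for 1 array far from the other 3. Its ratios were 0.01, 0.03 and 0.02 on both arrays of replicate 1 and on the array of replicate 2 with the mutant in Cy3, and -0.08 on the remaining array. The gap divided by the whole range was 0.844, above Dixon's 95% critical value for 4 values. It was the only such case in 55 sets of 4 values examined (49 genes and 6 medians). Chance alone flags about 5% of such sets, so 1 case in 55 is no more than chance gives. The 4 arrays are swapped pairs of 2 extractions, not 4 independent samples.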

How the results depend on the processing

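Among the 50 genes the count of negative calls, 3 as reported, was 1 over genes with values on all 4 arrays and 1 with the replicate as a random block. It was 5 with a dye term added (the correlation of 0.639 between swapped arrays was taken from the fit without that term), 7 with arrays scaled to equal width, 7 on the arrays with the mutant in Cy5 and 1 on those with the mutant in Cy3. The 4-array, block, dye-term and mutant-in-Cy3 settings covered 49 genes. They leave out ATPsynbeta, 1 of the 3 negative calls. The count of positive calls stayed 1 in all the settings named above. Both counts were 0 without variance moderation. Of all genes tested, 23.2% passed over genes with values on all 4 arrays, 25.3% with the block, 30.9% with the dye term, 33.8% (1944) with equal widths, 23.3% with the mutant in Cy5, 18.5% with the mutant in Cy3 and 0 without moderation (461 at an unadjusted p under 0.05 in limma), against 22.8% (1313). The cause was not tested.

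The median of complex I (-0.16) was -0.14 by spot, -0.17 with equal widths and -0.17 with centred arrays. It was -0.13 with the mutant in Cy5 and -0.070 with the mutant in Cy3. For complex IV (-0.16) the values were -0.16 with equal widths, -0.17 with centring, -0.11 with the mutant in Cy5 and -0.040 with the mutant in Cy3. The median of the members was -0.056 with the mutant in Cy3, over 49 genes without ATPsynbeta. With 1 replicate left out, which leaves no test, the median of all 50 genes lay between -0.13 and -0.08. The medians by complex then lay at -0.12 in complex I, between -0.13 and 0.15 in complex II, between -0.17 and 0.00 in complex III, between -0.14 and -0.13 in complex IV and between -0.16 and 0.00 in complex V. No sign of ND-51, COX6B, ATPsynbeta or Sdhaf3 turned in the alternatives that measured them.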
